A study of Homo sapiens with 4 samples.

Results

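The 9 genes described here encode C-type lectins and related receptors of myeloid cells: CD209, FCER2, CLEC5A, CLEC7A, CLEC12A, CLEC4A, CLEC10A, OLR1 and MRC1. They were found by gene symbol in a table of 24940 genes, in which each of these 9 symbols occurred once. RNA-seq reads were counted in MOLM-13, an established cell line from a human acute myeloid leukaemia with a KMT2A fusion, after lentiviral delivery of short hairpins and selection with 0.5 µg/ml puromycin or 600 µg/ml G418. The 4 groups were a control hairpin (shControl, labelled negative control), a hairpin against Bcl-2 (sh-Bcl2), a hairpin against c-Myc (sh-c-Myc) and both hairpins together (sh-c-Myc_sh-Bcl2, or dual-hairpin library). All of them were labelled as induced with doxycycline, and no library without doxycycline was used here. Each group held 1 library, so no difference between groups has a replicate check, and no test between groups was made. The genes were chosen by their counts and ratios in these same libraries, with no stated threshold, so the levels and ratios below are a description.

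C-type lectins are membrane or secreted proteins that share a carbohydrate-recognition fold, and in myeloid cells many act as pattern receptors. Some of them bind sugars on microbes and carry cargo into the cell, some signal through the kinase SYK, directly or through an adaptor, and others carry inhibitory motifs that recruit phosphatases. CD209 (DC-SIGN) binds mannose-rich and fucosylated glycans on dendritic cells and macrophages. FCER2 (CD23) is the low-affinity receptor for IgE on B cells, monocytes and macrophages, and is unusual among Fc receptors in having a lectin fold. CLEC12A is an inhibitory receptor used as a surface marker of acute myeloid leukaemia blasts.

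FCER2 and CD209 lie close together on chromosome 19, with 37.8 kb between them, and the sequences around their start sites are shown because these genes stood high in the same libraries. FCER2 (ENSG00000104921) is at chr19:7688758-7702146 and CD209 (ENSG00000090659) at chr19:7739994-7747564, both on the minus strand (GRCh38, GENCODE 29), and neither shares exonic bases with another annotated gene. RefSeq (GRCh38.p14) gives FCER2 with 2 start sites, and the counts are per gene, so they do not say which start was used. Each run holds 250 bases before and 50 bases after a start, 5′ to 3′ on the gene's strand, and CLEC5A is added as a gene with a different pattern. Capitals mark matches on either strand to CACGTG (the E-box bound by MYC and MAX), GAGGAA (a core of PU.1 sites), TTC and GAA with 4 bases between them (a STAT6-type palindrome), TGANTCA (an AP-1-type site) or TTGCNNAA (a C/EBP-type site), and no printed matches overlap each other.
CD209 start, chr19:7747485-7747784, minus strand: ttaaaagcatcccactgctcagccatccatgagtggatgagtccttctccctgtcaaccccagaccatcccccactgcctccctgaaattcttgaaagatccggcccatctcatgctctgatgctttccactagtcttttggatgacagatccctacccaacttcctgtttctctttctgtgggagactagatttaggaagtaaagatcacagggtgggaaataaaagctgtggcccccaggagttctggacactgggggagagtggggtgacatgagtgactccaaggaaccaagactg
FCER2 upstream start, chr19:7702082-7702381, minus strand: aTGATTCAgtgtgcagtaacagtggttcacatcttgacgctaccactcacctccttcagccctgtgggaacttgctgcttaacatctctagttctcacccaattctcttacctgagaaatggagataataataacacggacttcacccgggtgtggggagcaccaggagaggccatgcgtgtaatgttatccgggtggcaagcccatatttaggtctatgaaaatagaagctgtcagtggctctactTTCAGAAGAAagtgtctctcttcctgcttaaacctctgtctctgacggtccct
FCER2 downstream start, chr19:7699392-7699691, minus strand: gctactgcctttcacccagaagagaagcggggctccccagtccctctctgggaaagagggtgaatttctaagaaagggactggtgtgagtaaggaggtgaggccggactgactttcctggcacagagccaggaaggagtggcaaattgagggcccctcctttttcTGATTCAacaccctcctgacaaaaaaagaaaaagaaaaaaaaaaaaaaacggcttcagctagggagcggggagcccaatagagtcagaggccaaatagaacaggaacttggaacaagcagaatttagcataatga
CLEC5A start, chr7:141946925-141947224, minus strand: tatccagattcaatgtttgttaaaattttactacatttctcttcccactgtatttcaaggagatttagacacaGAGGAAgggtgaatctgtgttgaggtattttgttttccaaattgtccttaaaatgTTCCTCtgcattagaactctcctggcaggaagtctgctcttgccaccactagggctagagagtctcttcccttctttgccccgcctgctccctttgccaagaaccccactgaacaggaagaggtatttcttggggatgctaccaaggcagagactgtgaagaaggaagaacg

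The E-box CACGTG was not found in any of these windows, nor in that of CLEC12A, and is in 7.26% of the 35116 promoter windows of the same length. The window at the upstream FCER2 start held 1 match to the STAT6-type palindrome, found in 6.44% of all windows, and each FCER2 window held 1 match to TGANTCA, found in 7.71%. The CLEC5A window held 2 matches to GAGGAA and that of CLEC12A held 1, against 27.9% of all windows with at least 1. The motif TTGCNNAA, in 10.5% of all windows, had no match in these 5 windows, and the CD209 window had no match to any motif searched. A match or its absence describes the letters of the window only. The promoter table had entries for 4 of the 9 genes (CD209, FCER2, CLEC5A and CLEC12A).

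The libraries held between 14421558 and 15691129 counts. CPM is a gene's count scaled to a common library size, here with TMM factors. BCL2 stood at 119.7 CPM in shControl, at 38.71 and 44.52 in the libraries with its hairpin, and at 111.5 in sh-c-Myc. MYC stood at 433.7 CPM in shControl and at 278.2 and 301.6 in the libraries with the c-Myc hairpin. In sh-Bcl2 MYC lay between these, at 364.3 CPM. The sh-c-Myc library stood apart in the number of genes with a count (21426, against 19450 to 20318 in the other libraries) and in the share of counts in pseudogenes (0.734% against 0.544% to 0.636%). Below, a gene counts as called higher or lower if its ratio was 2-fold or more, the 95% interval left out 1 and a level of 1 CPM was reached in some library, as 13646 genes did. Of the 9 lectin genes, 6 met that minimum. Brackets hold 95% intervals, exact for levels and ratios and by the delta method for departures from additivity, that cover counting error only and not the spread between cultures.

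The surface receptors FCER2, CD209 and CLEC12A had the highest FPKM among the 9 genes in every library, and all of them were higher in both libraries with the c-Myc hairpin than in shControl. FCER2 had 164 counts in shControl, 456 with sh-Bcl2, 1416 with sh-c-Myc and 1381 in the dual-hairpin library. On the CPM scale these were 11.6 [9.93 to 13.6], 30.1 [27.4 to 33.0], 90.8 [86.1 to 95.7] and 88.3 [83.7 to 93.1] in the same order. The libraries with the c-Myc hairpin were highest and had overlapping intervals, sh-Bcl2 lay between, and shControl was lowest. FCER2 was 7.78-fold higher in sh-c-Myc than in shControl [6.63 to 9.23], 7.57-fold in the dual-hairpin library [6.45 to 8.98] and 2.58-fold in sh-Bcl2 [2.16 to 3.11]. Bulk RNA cannot tell more cells that express a gene from more RNA per cell, here or for the other genes.

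CD209, the mannose-binding receptor, had 43 counts in shControl, 179 with sh-Bcl2, 482 with sh-c-Myc and 657 in the dual-hairpin library. Its CPM levels were 3.05 [2.21 to 4.11], 11.8 [10.2 to 13.7], 30.9 [28.2 to 33.8] and 42.0 [38.9 to 45.4]. No intervals overlapped, and the order was shControl, sh-Bcl2, sh-c-Myc and dual-hairpin library. Against shControl CD209 was 3.84-fold higher in sh-Bcl2 [2.76 to 5.54], 10.0-fold in sh-c-Myc [7.41 to 14.2] and 13.6-fold in the dual-hairpin library [10.1 to 19.2]. Its ratio in the dual-hairpin library ranked 30 from the top among 13646 genes, and that of FCER2 ranked 86.

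CLEC12A (ENSG00000172322; chr12:9951316-9995694, plus strand), the inhibitory receptor, had 76 counts in shControl, 157 with sh-Bcl2, 342 with sh-c-Myc and 304 in the dual-hairpin library. Its CPM levels were 5.39 [4.25 to 6.75], 10.4 [8.81 to 12.1], 21.9 [19.7 to 24.4] and 19.4 [17.3 to 21.8]. As for FCER2, the libraries with the c-Myc hairpin were highest with overlapping intervals, sh-Bcl2 was between and shControl lowest. It was 4.05-fold higher in sh-c-Myc than in shControl [3.16 to 5.28], 3.59-fold in the dual-hairpin library [2.80 to 4.70] and 1.92-fold in sh-Bcl2 [1.45 to 2.56], the last under the 2-fold threshold. CLEC12A shares 4.55% of its exonic bases with CLEC12A-AS1 and CLEC1B on the other strand. CLEC12A-AS1 had 20, 45, 27 and 11 counts in the order of libraries above, and without a stated strand setting reads of such a pair cannot be told apart.

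**Figure D1:**
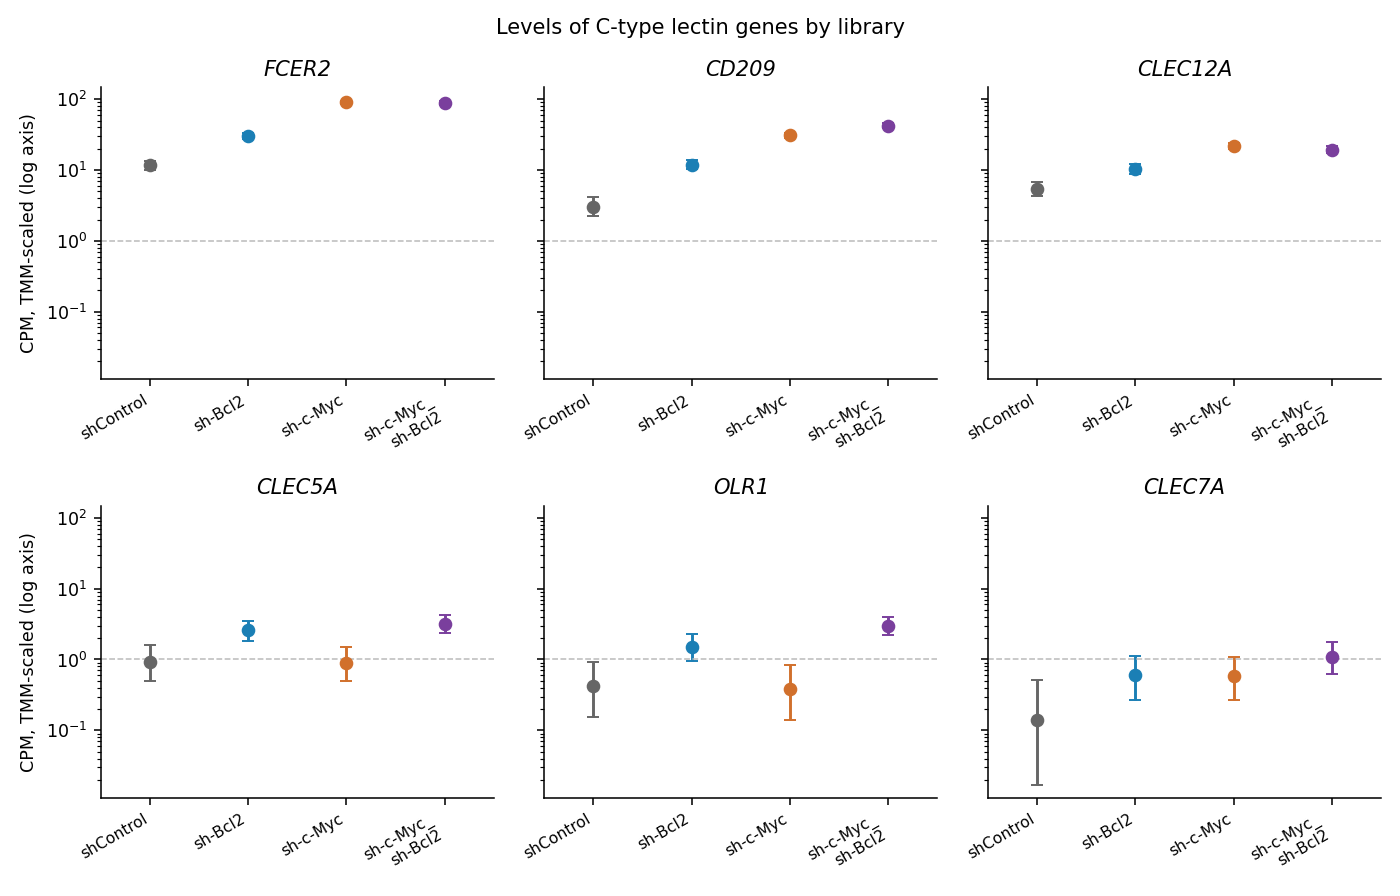
TMM-scaled CPM (log axis) of 6 lectin genes in the 4 libraries, 1 point per library with its exact 95% counting interval; the dashed line is 1 CPM. FCER2, CD209 and CLEC12A are highest in the libraries with the c-Myc hairpin, while CLEC5A and OLR1 are highest in the libraries with the Bcl-2 hairpin.

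CLEC5A and OLR1 had another pattern: they were higher in the libraries with the Bcl-2 hairpin, and their intervals in sh-c-Myc and shControl overlapped. CLEC5A (ENSG00000258227; chr7:141927357-141947007, minus strand) signals through the adaptor TYROBP (DAP12) and is a receptor for dengue virus. It had 13 counts in shControl, 39 with sh-Bcl2, 14 with sh-c-Myc and 50 in the dual-hairpin library, or 0.923, 2.58, 0.898 and 3.20 CPM. It was 2.72-fold higher in sh-Bcl2 than in shControl [1.46 to 5.70] and 3.47-fold higher in the dual-hairpin library than in sh-c-Myc [1.94 to 6.98]. Its log2 ratio of sh-c-Myc to shControl was -0.04 [-1.24 to 1.17], and 0.14 with total-count scaling. CLEC5A shares 12% of its exonic bases with MGAM on the other strand, which had 1 to 11 counts in the 4 libraries.

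OLR1 (LOX-1; ENSG00000173391; chr12:10158301-10172138, minus strand) is a scavenger receptor for oxidised low-density lipoprotein and shares no exonic bases with another gene. It had 6 counts in shControl, 23 with sh-Bcl2, 6 with sh-c-Myc and 47 in the dual-hairpin library, or 0.426, 1.52, 0.385 and 3.01 CPM. The dual-hairpin library was highest, and shControl and sh-c-Myc had the same count. OLR1 was 3.36-fold higher in sh-Bcl2 than in shControl [1.41 to 10.7] and 7.29-fold higher in the dual-hairpin library than in sh-c-Myc [3.33 to 22.4]. The second ratio ranked 11 from the top among 13646 genes, and that of CLEC5A ranked 42. The log2 ratio of OLR1 in sh-c-Myc to shControl was -0.15 [-2.05 to 1.76], and 0.04 with total-count scaling.

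CLEC7A (dectin-1; ENSG00000172243; chr12:10116777-10130258, minus strand), the receptor for fungal beta-glucans, reached 1 CPM only in the dual-hairpin library. It had 2 counts in shControl, 9 with sh-Bcl2, 9 with sh-c-Myc and 17 in the dual-hairpin library, or 0.142, 0.595, 0.577 and 1.09 CPM. The dual-hairpin library was 6.31-fold higher than shControl, with an interval of 1.82 to 68.4, while the intervals of sh-Bcl2 (0.867 to 39.8) and sh-c-Myc (0.842 to 38.7) included a ratio of 1.

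The other 3 genes were at or near 0. CLEC10A (MGL; ENSG00000132514; chr17:7074537-7080307, minus strand), which binds terminal galactose and N-acetylgalactosamine, had 0 counts in shControl, 3 with sh-Bcl2, 8 with sh-c-Myc and 6 in the dual-hairpin library. Against a floor of 3 counts for shControl, and with the other counts taken as exact, it was at least 2.41-fold higher in sh-c-Myc and at least 1.80-fold in the dual-hairpin library. The lower ends of the 95% counting intervals of these ratios were 0.63 and 0.09 on the log2 scale. CLEC4A (DCIR; ENSG00000111729; chr12:8123632-8138607, plus strand), which carries an inhibitory motif, had 3 counts in shControl, 0 with sh-Bcl2, 0 with sh-c-Myc and 1 in the dual-hairpin library. It shares 69.7% of its exonic bases with other annotated genes on the same strand, so its counts are uncertain. MRC1 (CD206; ENSG00000260314; chr10:17809344-17911170, plus strand), the macrophage mannose receptor, had 1 count in sh-c-Myc and 0 in the other libraries. For MRC1 the floor of 3 counts corresponds to 0.213 CPM in shControl, 0.198 in sh-Bcl2 and 0.192 in the dual-hairpin library, and the upper ends of the 2-sided exact intervals at 0 counts were 0.262, 0.244 and 0.236 CPM.

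Levels were compared between genes on the deposited FPKM, which is scaled to gene length. FCER2 had the highest FPKM of the 9 genes in every library (4.51, 11.9, 40.1 and 36.4 in shControl, sh-Bcl2, sh-c-Myc and the dual-hairpin library) and held 62.0% to 71.9% of their summed FPKM. That sum was 7.28 in shControl, 18.8 with sh-Bcl2, 55.7 with sh-c-Myc and 54.3 in the dual-hairpin library. CLEC12A was second in shControl (1.58 FPKM against 0.657 for CD209) and in sh-Bcl2 (3.08 against 2.59), and CD209 was second in sh-c-Myc (7.57 against 7.30) and in the dual-hairpin library (9.61 against 6.04). The FPKM of CD209 over that of FCER2 was 0.146 in shControl, 0.218 with sh-Bcl2, 0.189 with sh-c-Myc and 0.264 in the dual-hairpin library. FCER2 in sh-c-Myc stood at the 96.3rd percentile of FPKM over all listed genes, and in shControl at the 71.4th.

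By comparison, 4 of the 6 genes that met the minimum were called higher in sh-Bcl2 than in shControl (CD209, FCER2, CLEC5A and OLR1), beside 2.45% of all 13646 genes. In sh-c-Myc 3 were called higher (CD209, FCER2 and CLEC12A), beside 12.5% of all genes, and in the dual-hairpin library all 6 were, beside 7.10%. None of the 6 was called lower in any of these comparisons, beside 2.16%, 9.86% and 5.99% of all genes. The median log2 ratio of the 6 was 1.60 for sh-Bcl2, 1.90 for sh-c-Myc and 2.69 in the dual-hairpin library, and that of all genes was -0.00, -0.02 and -0.01. CLEC5A and OLR1 reached 1 CPM only in the libraries with the Bcl-2 hairpin, and CLEC7A only in the dual-hairpin library. They thus met the minimum through libraries where they were high. The choice of the genes also used these contrasts and the comparisons share 1 control library, so nothing is read from these shares. With total-count scaling 71.0% of all calls in sh-c-Myc were higher, against 55.9% with TMM factors, and the median log2 ratio over genes averaging 50 counts or more moved from -0.10 to 0.08. With upper quartile factors 64.4% of calls in the dual-hairpin library were higher, against 54.3%.

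**Figure D2:**
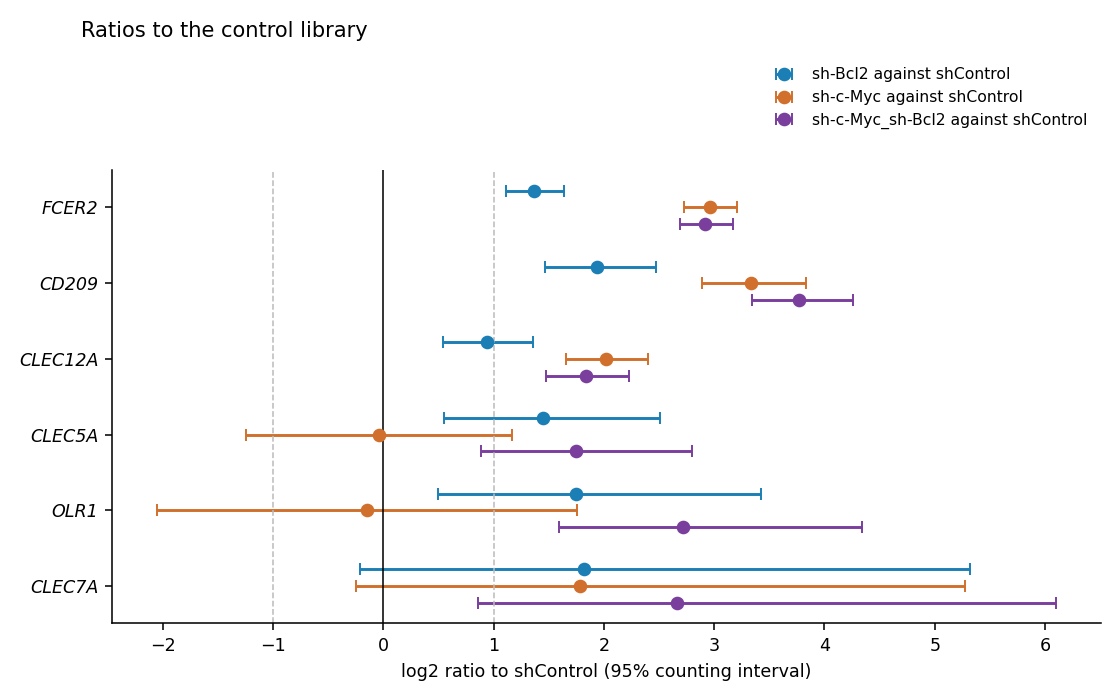
Log2 ratios of 6 lectin genes to shControl (x axis), 1 point per comparison with its 95% counting interval; dashed lines mark a 2-fold difference. CD209 and FCER2 lie beyond 1 in all 3 comparisons, and CLEC5A and OLR1 lie at -0.04 and -0.15 in sh-c-Myc.

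The dual-hairpin library differed from sh-Bcl2 by the c-Myc hairpin, and it had higher CD209, 3.55-fold [3.01 to 4.22], and FCER2, 2.93-fold [2.64 to 3.27]. These 2 of the 6 genes were called higher, beside 5.21% of all genes, and 0 lower, beside 3.63%. CLEC12A was 1.87-fold higher [1.54 to 2.29] and OLR1 1.96-fold [1.18 to 3.41], both just under the threshold, and OLR1 passed it with total-count or upper quartile scaling. The ratios of CLEC5A, 1.24-fold [0.800 to 1.94], and CLEC7A, 1.78-fold [0.771 to 4.66], had intervals that included 1.

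The dual-hairpin library and sh-c-Myc differ by the Bcl-2 hairpin. Between them 2 of the 6 genes were called higher, OLR1 and CLEC5A, beside 1.66% of all genes. The number called lower was 0, beside 4.70%. OLR1 and CLEC5A reached 1 CPM only in the libraries with the Bcl-2 hairpin. They thus met the minimum through the libraries where they were high, so nothing is read from this share. CD209 was 1.36-fold higher [1.21 to 1.53]. FCER2 stood at a log2 ratio of -0.04 [-0.15 to 0.07] and CLEC12A at -0.17 [-0.40 to 0.05]. CLEC7A was 1.84-fold higher, with an interval of 0.794 to 4.80.

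**Figure D3:**
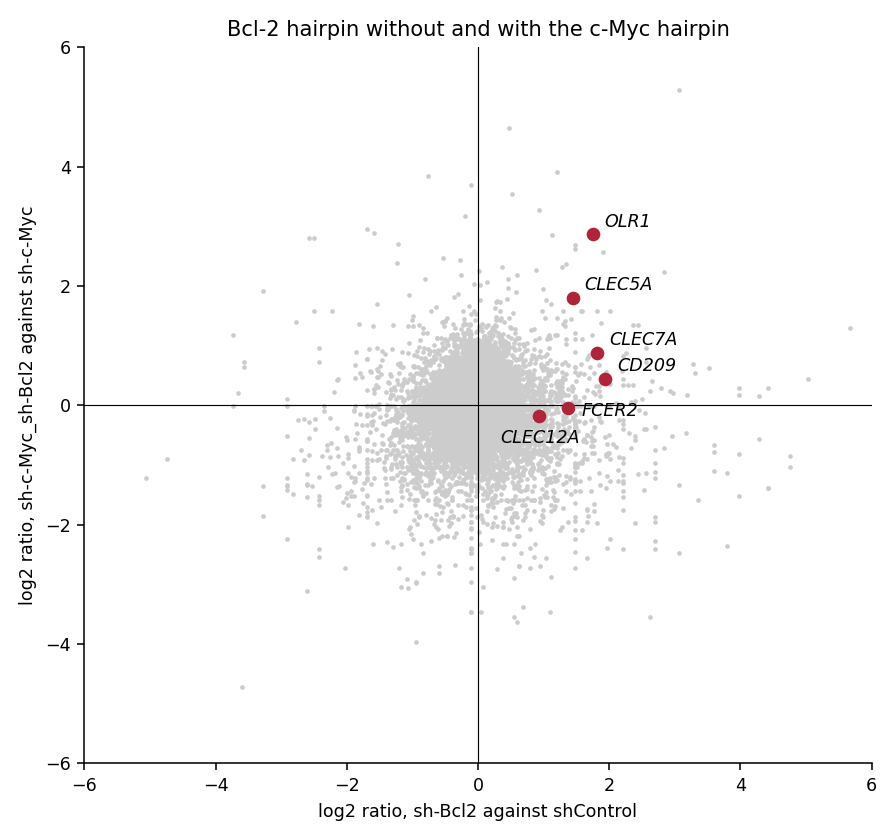
Log2 ratio of sh-Bcl2 to shControl (x axis) against that of the dual-hairpin library to sh-c-Myc (y axis) for 13646 genes (grey), with 6 lectin genes in red. OLR1 and CLEC5A are above 1 on both axes, and CD209 and FCER2 are above 1 on the x axis and at 0.44 and -0.04 on the y axis.

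The dual-hairpin library was also set against the sum of the log2 ratios of the single knockdowns. For CD209 the sum was 5.27 and the dual-hairpin library stood at 3.77, a departure of -1.50 [-2.01 to -0.99]. For FCER2 the departure was -1.41 [-1.69 to -1.13] and for CLEC12A -1.11 [-1.56 to -0.66]. These 3 genes were below the sum by at least 1, beside 5.73% of all genes, and 0 were above it by that much with an interval free of 0, beside 3.04%. Over the 222 genes called higher in both single knockdowns, CD209 and FCER2 among them, the departure was below 0 in 222. Their median was -2.03, against 0.05 over all genes. That class was chosen by ratios that enter the departure and rest on the same control library. Such a choice favours departures below 0, so nothing is read from it. CLEC12A, at a log2 ratio of 0.94 in sh-Bcl2, is not in the class. The intervals of OLR1, 1.12 [-0.61 to 2.84], CLEC5A, 0.35 [-0.88 to 1.58], and CLEC7A, -0.94 [-3.26 to 1.37], included 0.

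The wider family was taken from a list of 80 genes with a C-type lectin domain, 47 of which appear in the table and 22 of which met 1 CPM. Without the 9 genes, 16 met it. Of these 16, 1 was called higher in sh-Bcl2 and 0 lower, 3 higher and 1 lower in sh-c-Myc, and 2 higher and 0 lower in the dual-hairpin library, with medians of 0.23, 0.46 and 0.19. Over all genes, 2.45%, 12.5% and 7.10% were called higher in these comparisons, and 2.16%, 9.86% and 5.99% lower. CLEC12B, an inhibitory receptor gene next to CLEC12A, had 14, 29, 61 and 76 counts in shControl, sh-Bcl2, sh-c-Myc and the dual-hairpin library. Against shControl it was higher by 1.94 on the log2 scale with sh-c-Myc [1.12 to 2.93] and by 2.25 in the dual-hairpin library [1.46 to 3.23]. CLEC2D, which encodes the ligand of the NK receptor KLRB1, was higher in sh-c-Myc (log2 1.37 [1.12 to 1.64]), as was ASGR2, a subunit of the asialoglycoprotein receptor (1.85 [1.20 to 2.60]). CLEC1B, the podoplanin receptor of platelets, was higher in the dual-hairpin library (1.27 [0.32 to 2.40]) and shares exonic bases with CLEC12A. CLEC2B was called higher in sh-Bcl2 at 29 counts against 7, and had 2 and 6 counts in sh-c-Myc and the dual-hairpin library. PLA2R1, a phospholipase receptor of the mannose receptor family, was lower in sh-c-Myc (-1.39 [-2.74 to -0.26]). In the dual-hairpin library against sh-Bcl2, 1 of the 16 was called higher (CLEC12B) and 2 lower (CLEC2B and PLA2R1), and against sh-c-Myc 0 were called higher and 2 lower (ASGR2 and BCAN). Of all genes, 5.21% were higher and 3.63% lower against sh-Bcl2, and 1.66% and 4.70% against sh-c-Myc. CLEC11A, a secreted growth factor gene, stood at 519 to 726 CPM, and its log2 ratios to shControl lay between -0.39 and 0.10.

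**Figure D4:**
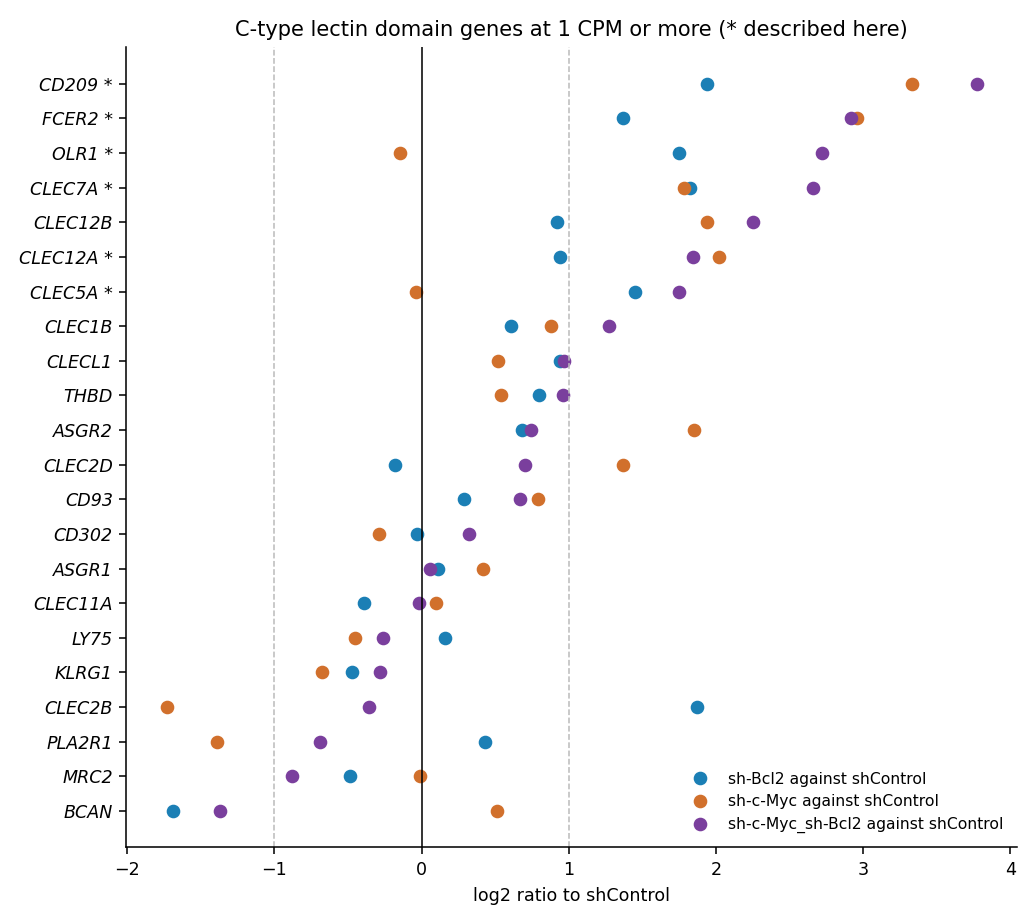
Log2 ratios to shControl (x axis) of the 22 C-type lectin genes that met 1 CPM, ordered by the dual-hairpin library, with stars on the genes described in detail; dashed lines mark a 2-fold difference. CD209 and FCER2 have the highest ratios in the dual-hairpin library, and BCAN the lowest.

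Other genes near the described ones were examined by position, a choice made after their values were seen. Within 100 kb of FCER2 and CD209, MCEMP1, a mast cell membrane protein gene, had log2 ratios to shControl of 0.13 with sh-Bcl2, 1.47 with sh-c-Myc and 1.22 in the dual-hairpin library. EVI5L stood at 0.35, 1.88 and 1.33 in the same order, TRAPPC5 at -0.53, 1.20 and 0.11, STXBP2 at -0.47, 0.75 and 0.46, and XAB2 at -0.15, -0.04 and -0.17. CLEC4G and CLEC4M, the lectin genes on either side of CD209, had at most 12 and 4 counts in a library. FCER2 and CD209 were the only genes of that window called higher in sh-Bcl2. On chromosome 12, the autophagy gene GABARAPL1 beyond OLR1 stood at -0.57, 0.31 and -0.18. CLEC9A and CLEC1A, between CLEC12A and CLEC7A, had at most 2 and 5 counts. Other neighbours there were called higher than in shControl. CLEC12B (0.92, 1.94 and 2.25) was so in both libraries with the c-Myc hairpin, and CLEC1B (0.61, 0.88 and 1.27) in the dual-hairpin library. CLEC2B (1.87, -1.73 and -0.36) and CLEC12A-AS1 (1.05, 0.28 and -0.98) were so in sh-Bcl2.

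**Figure D5:**
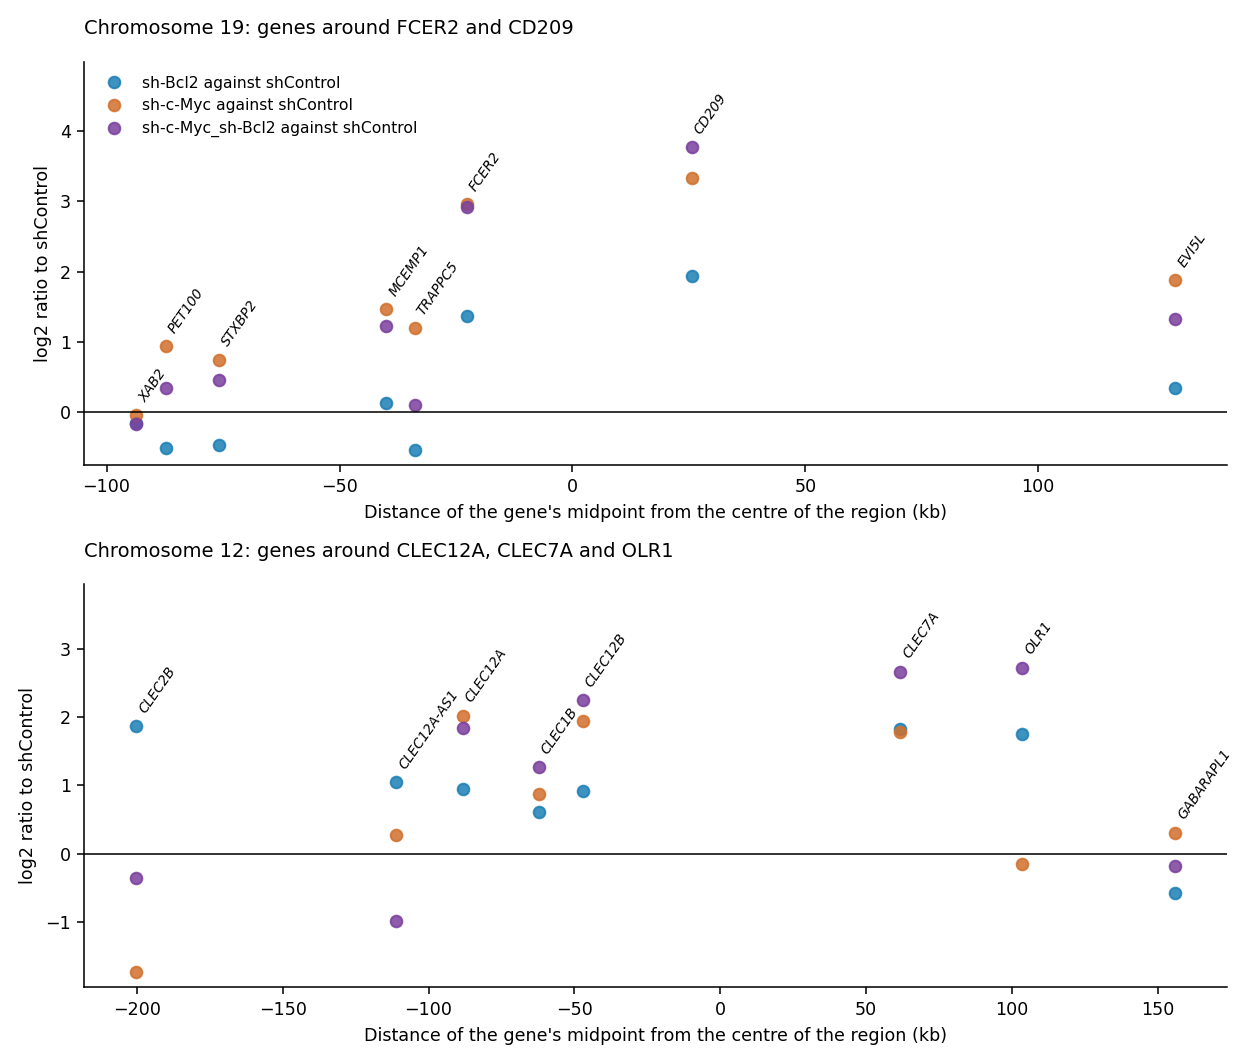
Log2 ratios to shControl (y axis) of genes at 1 CPM or more within 100 kb of FCER2 and CD209 (top) and of CLEC12A, CLEC7A and OLR1 (bottom), against the distance of each gene's midpoint from the region's centre in kb. CD209 and FCER2 have the highest ratios of their region in all 3 comparisons.

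The genes most like CD209 and FCER2 were found by the Euclidean distance between the 3 log2 ratios to shControl, over the 4 libraries among genes that reached 10 CPM in some library. For CD209 they were FGL2 (distance 0.581), LYZ (0.985), FCER2 (1.09), S100A8 (1.13) and CSF1R (1.29). For FCER2 they were S100A8 (0.160), LYZ (0.412), PTAFR (0.458), HSH2D (0.514) and CSF1R (0.541). LYZ encodes lysozyme, S100A8 a calgranulin subunit and CSF1R a receptor tyrosine kinase of monocytes.

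Genes that act with these receptors were counted by list. Of 21 measured genes of lectin receptor signalling, 0 were called higher and 1 lower (BLNK) in sh-Bcl2, 2 higher in sh-c-Myc and 3 higher in the dual-hairpin library, with medians of 0.02, 0.20 and 0.21. The shares of all genes, for this list and the next, were 2.45%, 12.5% and 7.10% higher and 2.16%, 9.86% and 5.99% lower. TYROBP, the adaptor of CLEC5A, stood at 27.8 CPM in shControl, 37.9 with sh-Bcl2, 89.1 with sh-c-Myc and 75.9 in the dual-hairpin library, which was not the order of CLEC5A. The kinase gene SRC was higher with sh-c-Myc (log2 1.47 [0.68 to 2.38]) and the dual-hairpin library (1.16 [0.35 to 2.09]). BLNK, an adaptor gene, had 15 counts in shControl, 5 with sh-Bcl2, 14 with sh-c-Myc and 36 in the dual-hairpin library. SYK stood at 247, 223, 278 and 221 CPM. Against sh-Bcl2 the dual-hairpin library had 2 of the 21 higher, and against sh-c-Myc 1, beside 5.21% and 1.66% of all genes. Of 9 measured genes for ligands, integrin partners and shedding, 0 were called in sh-Bcl2, 4 were higher in sh-c-Myc and 4 in the dual-hairpin library. ITGAX, an integrin that FCER2 protein binds, was higher in sh-c-Myc (2.38 [2.23 to 2.54]) and the dual-hairpin library (1.10 [0.93 to 1.27]), and ITGAM stood at 1.59 [1.49 to 1.69] and 1.30 [1.20 to 1.40]. ICAM3, a ligand of CD209, had 1 count in shControl, 4 with sh-Bcl2, 20 with sh-c-Myc and 14 in the dual-hairpin library. TNFSF4 was called higher in sh-c-Myc and LGALS3 in the dual-hairpin library. ADAM10, the sheddase of FCER2 protein, stood at 210, 224, 244 and 257 CPM. In the dual-hairpin library 2 of the 9 were called higher than in sh-Bcl2, beside 5.21% of all genes. Another comparison, with sh-c-Myc, had 2 lower, beside 4.70%.

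CD209, FCER2, MRC1, CLEC10A and CLEC7A are known to be induced by interleukin-4 in human monocytes and macrophages. A list of other macrophage genes and interleukin-4 receptor pathway genes was therefore counted. Not every gene of that list, CD163 among them, is known as induced by interleukin-4. Of 12 measured genes 2 were called higher in sh-Bcl2 (CCL24 and SOCS1), 4 in sh-c-Myc and 4 in the dual-hairpin library, with medians of 0.43, 0.62 and 0.76 and 0 lower. The shares of all genes, for this list and the next, were 2.45%, 12.5% and 7.10% higher and 2.16%, 9.86% and 5.99% lower. The chemokine gene CCL24 had 7 counts in shControl, 45 with sh-Bcl2, 68 with sh-c-Myc and 73 in the dual-hairpin library. The others in sh-c-Myc and the dual-hairpin library were CISH (log2 1.24 and 1.41), SOCS1 (1.37 and 1.24) and IL13RA1 (1.29 and 1.34), which act in cytokine receptor signalling. ALOX15, CCL17, CCL22, CD200R1, MSR1, STAB1 and TGM2 had under 1 CPM in every library. CCL13, CCL18, F13A1, IL10 and MAOA are not listed in the table. Against sh-c-Myc the dual-hairpin library had 1 of the 12 higher, the scavenger receptor gene CD163, beside 1.66% of all genes. The number higher against sh-Bcl2 was 0, beside 5.21%. Of 10 measured myeloid transcription factor genes 0 were called in sh-Bcl2, 2 were higher in sh-c-Myc (KLF4 and CEBPE) and 1 lower (EGR1), and 2 were higher in the dual-hairpin library. In the dual-hairpin library 2 were higher than in sh-Bcl2 (KLF4 and CEBPE), beside 5.21% of all genes. EGR1 and EGR2 were the 2 higher than in sh-c-Myc, beside 1.66%. KLF4, a monocyte factor, stood at 12.1, 14.3, 39.3 and 34.8 CPM.

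Markers of cell types that carry these lectins were also higher in some of these libraries, and their part in the lectin levels was not tested. The summed level of 17 listed monocyte and macrophage markers was 363 CPM in shControl, 518 with sh-Bcl2, 1130 with sh-c-Myc and 1170 in the dual-hairpin library, and 7 of the 12 that met 1 CPM were called higher in each library with the c-Myc hairpin. In sh-Bcl2 3 were called higher (LYZ, S100A8 and MPEG1) and 1 lower (MARCO). Over all genes, 2.45%, 12.5% and 7.10% were called higher in sh-Bcl2, sh-c-Myc and the dual-hairpin library, and 2.16%, 9.86% and 5.99% lower. The 7 were CSF1R (log2 3.24 in sh-c-Myc), S100A8 (3.07), LYZ (2.73), S100A9 (2.71), MPEG1 (2.19), ITGAM (1.59) and CX3CR1 (1.33). Of the rest, CD14 reached at most 1.22 CPM, CD68 0.128, and MSR1 and FCN1 stayed under 1 CPM. The 9 listed granulocyte markers summed to 2410, 1620, 4930 and 4780 CPM, of which AZU1 was 1390, 812, 2520 and 2180. AZU1 was not called against shControl in any of these libraries (log2 -0.77, 0.86 and 0.65). Of the 6 granulocyte markers that met 1 CPM, 4 (MPO, ELANE, PRTN3 and CSF3R) were called higher in each library with the c-Myc hairpin. In sh-Bcl2 0 of them were higher and 1 was lower (CTSG). For B cells, where FCER2 is also found, the 7 listed markers summed to 44.5, 59.9, 108 and 108 CPM, most of it BANK1 (38.5, 52.5, 101 and 103 CPM). The B cell marker MS4A1 is not listed in the table, CD79B and CD22 had at most 0.142 CPM, and PAX5 stood at 1.28 CPM in shControl and at 0.128 in each library with the c-Myc hairpin. Among 14 listed dendritic cell markers 5 met 1 CPM, CD1A, CD1C, CLEC9A and CLEC4C stayed under it, and 0 were called in sh-Bcl2. With sh-c-Myc 1 was higher (IL3RA, log2 1.02 [0.88 to 1.17]) and 1 lower (BATF3, -1.87 [-2.22 to -1.55]), and in the dual-hairpin library 0 were higher and 1 lower (BATF3, -2.67 [-3.11 to -2.27]). Set against sh-Bcl2, the dual-hairpin library had 1 higher (ZBTB46) and 1 lower (BATF3), beside 5.21% and 3.63% of all genes. That list summed to 519, 613, 800 and 719 CPM, of which FLT3 was 426 to 671. T and NK cell markers summed to 318, 295, 263 and 297 CPM, of which NCAM1 was 203 to 248, with CD3D, CD3E and CD3G not listed in the table. In the dual-hairpin library against sh-Bcl2, 7 of the 12 monocyte and macrophage markers and 5 of the 6 granulocyte markers were called higher, and 0 lower. Of the B cell markers 0 were higher and 1 lower, and of the T and NK cell markers 0 were called. The shares of all genes were 5.21% higher and 3.63% lower.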

How the data were processed

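RNA-seq of MOLM-13 cells gave 1 library for each of 4 groups. Per the submitters' processing notes the authors aligned reads to GRCh38 with HISAT2 and counted them with HTSeq 0.13.5; no annotation release, strand setting or HISAT2 version is given in the sources used here. Counts were used as deposited. Per the file headers the other columns are FPKM, and the gene length each implies with its count was a whole number, within 0.01 base, for 100% of 81017 values. Per the labels' protocols 1.5 µg of RNA entered each library, and the Western blot used 72 h of doxycycline.

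Counts were scaled with TMM factors (edgeR 4.0.16) over all genes, and log2 ratios used a prior of 0.5 counts. Intervals of ratios are exact conditional binomial, those of levels exact Poisson, and those of departures from additivity use the delta method, at 95% (scipy 1.17.1). They cover the counting error of reads only, since each group held 1 library, and reads carry no molecular identifiers. The ratio and call rule were tested on simulated tables. With 1 library per group and genes chosen from these values, no test was run. Gene places are from GENCODE 29 (GRCh38), in which all 24940 identifiers occur. The genes, the lists and the rules were chosen with earlier results of these data known. The genes named in full are the 9 genes, the 5 most alike to CD209 and to FCER2, and up to 8 per list ranked by the interval bound closest to 1. Others are named as receptors, adaptors, ligands or markers whose level bears on a list or as neighbours, chosen after their values were seen. Alternatives covered scaling (total counts, upper quartile, DESeq2 1.42.0), the prior, the minimum, the threshold, FPKM, and a trend on GC content and length.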

Additional observations from a re-analysis of the deposited data

Results flagged for a closer look

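FCER2 and CLEC12A had ratios of opposite sign for the Bcl-2 hairpin in the absence and presence of the c-Myc hairpin. For FCER2 the log2 ratio was 1.37 without the c-Myc hairpin and -0.04 with it, and for CLEC12A it was 0.94 and -0.17. CLEC5A and OLR1 did so with the c-Myc hairpin: the log2 ratio was -0.04 without and 0.31 with the Bcl-2 hairpin for CLEC5A, and -0.15 and 0.97 for OLR1. The differences were not tested, since each value rests on 1 library per group. The counting interval of the value nearer to 0 included 0 in each case, and for CLEC5A that of the other value did too (-0.32 to 0.95). The sign of the former changed with scaling for CLEC5A (0.14 with total counts) and OLR1 (0.04), and with the GC content and length trend removed for FCER2 (0.08).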

How the results depend on the processing

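No paired analysis was possible because each group holds 1 library. For the same reason no library could be left out. Over the alternatives no called ratio of a lectin gene changed sign, and CD209 and FCER2 were called higher in every comparison with shControl and against sh-Bcl2 under all 10 alternatives. Among genes averaging 50 counts or more, which CLEC5A, OLR1 and CLEC7A did not reach, the lectin genes called higher than in shControl were 2 for sh-Bcl2 and 3 for the dual-hairpin library, and 0 were higher in the latter than in sh-c-Myc. Those numbers were also 2, 3 and 0 with FPKM + 1, a scale that shrinks the ratios of low genes. With a 1.5-fold threshold 4 were higher in the dual-hairpin library than in sh-Bcl2. Over all genes, in the order sh-Bcl2, sh-c-Myc and dual-hairpin library against shControl, then dual-hairpin library against sh-Bcl2 and against sh-c-Myc, calls numbered 163, 1872, 996, 561 and 213 at an average of 50 counts or more. They numbered 1389, 5502, 3856, 2901 and 2050 at 1.5-fold, and 100, 1337, 593, 298 and 155 with FPKM + 1. With no minimum the last was 1335. With FPKM + 1 the departure was -0.81 for CD209 and -0.90 for CLEC12A, so of the 3 genes at least 1 below the sum FCER2 alone (-1.36) was still so. Depth limits CLEC7A, CLEC10A, CLEC4A and MRC1, each with at most 17 counts in a library.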
